A study of Mus musculus with 11 samples.

Results

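The genes described here belong to the alternative pathway of complement, with the receptors for its cleavage products and the membrane proteins that restrain it. They were measured in sympathetic ganglia, which hold noradrenergic neurons and their satellite glia. The members were fixed by name as 7 genes, and all probe sets of the array annotated to 1 such gene alone were taken. 6 of the 7, namely Cfp, Cfb, C3ar1, C5ar1, Cd55 and Cd59a, had such a probe set, out of 12393 genes in all, and C3 had none in the annotation used and was not analysed here. The 6 genes were read by 9 of the 20380 single-gene probe sets. Each of the 11 arrays held total RNA of ganglia cut from fresh-frozen tissue by laser capture. The tested animals were male apoE-/- mice (6 arrays) and the controls male wild-type mice (5 arrays), all of the C57BL strain, 78 weeks old and fed normal chow. Mice without apolipoprotein E, a lipid carrier, develop atherosclerosis, and the title of the series sets the ganglia beside the diseased aorta. The labels do not tie arrays to animals, so the p-values set the differences only against the spread of these samples, and that spread may be partly technical.

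Complement is a set of plasma and membrane proteins that marks surfaces for removal. The alternative pathway keeps itself going: a fragment of C3 on a surface binds factor B, factor B is cut to form the enzyme that splits more C3, and properdin holds that enzyme together. The small fragments released along the way act through G protein-coupled receptors on myeloid and other cells, while proteins on host membranes take the enzymes apart or stop the lytic pore from forming. Macrophages, neutrophils, fibroblasts and endothelial cells are all known sources of some of these transcripts.

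The deposited values are probe set signals on a linear scale. Unless a value is called a signal, values below are log2(signal + 16) after quantile normalisation, differences are Apoe-deficient minus wild-type, and a gene passed when its limma p, Benjamini-Hochberg adjusted over 8433 genes, was under 0.05. Over all those genes 1.93% passed, 1.26% of them as higher and 0.676% as lower in Apoe-deficient ganglia, and the median difference was -0.04. A gene entered the test if at least 5 arrays had it above 6.98, which is the 40th percentile over all probe sets and arrays. The Apoe signal averaged 143 in the Apoe-deficient arrays and 15155 in the wild-type arrays, and each array lay on its label's side. The hybridisation controls, added transcripts that are not of the mouse, gave 3 levels. The low level held replicates 2 to 4 of the Apoe-deficient group and no wild-type array. The middle level held replicate 5 of the Apoe-deficient and replicates 3 to 5 of the wild-type group, and the high level held the remaining 2 arrays of each. The first principal component of the genes, with 32.3% of the variance, parted the groups and set the 3 low arrays at its end. They lay at -25.9 to -19.5, the other Apoe-deficient arrays at -4.83 to -2.50 and the wild-type arrays at 0.24 to 23.8.

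Of the 6 measured genes, 1 rose, 0 fell, 4 did not pass and 1 was below the filter. Properdin (Cfp) rose, with a difference of 1.73, and factor B (Cfb) had a difference of 1.19 that narrowly missed the threshold (limma adjusted p = 0.053). The anaphylatoxin receptor C3ar1 differed by 0.40 and the membrane regulators Cd55 and Cd59a by 0.08 and 0.03. 1 of 5 tested members is a count too small to be set against the 1.93% of all genes. Cfp and Cfb reached the filter through the Apoe-deficient arrays: Cfp was above it in 6 of 6 Apoe-deficient and 1 of 5 wild-type arrays, and Cfb in 5 of 6 Apoe-deficient and 0 of 5 wild-type arrays. A gene that enters in this way had to differ, so the counts over the tested members describe them and support nothing.

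**Figure D1:**
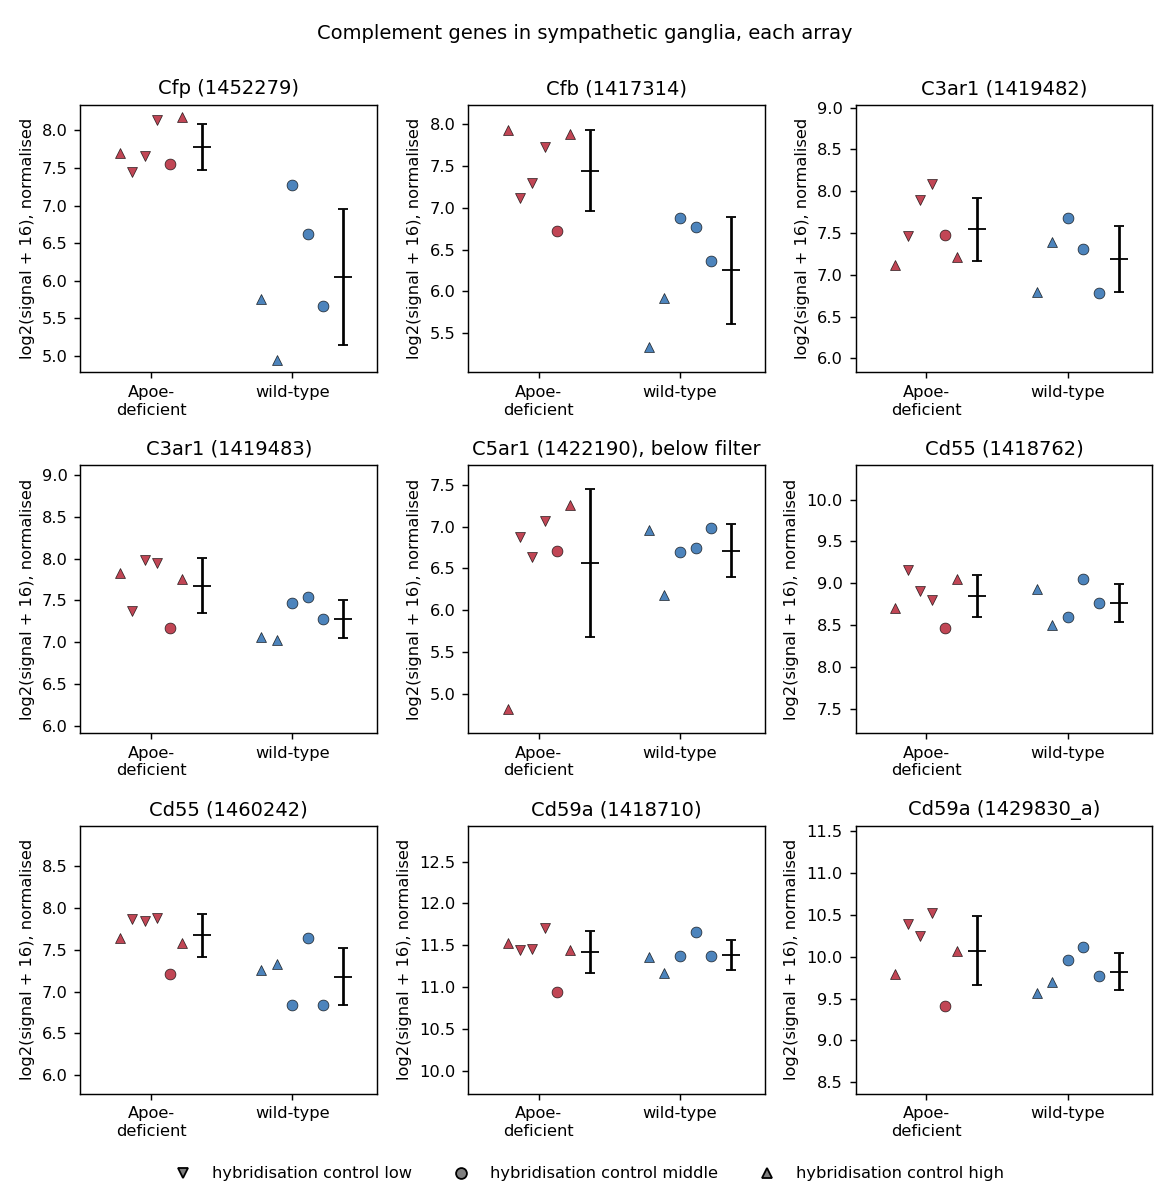
Normalised log2(signal + 16) of each of the 9 probe sets of the 6 measured genes in every array, with Apoe-deficient arrays at left and wild-type arrays at right. Each point is an array, its shape gives the level of the hybridisation controls, and the bar is the mean ± SD (n = 6 and n = 5). The groups part for Cfp and overlap for the other 8 probe sets.

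Cfp encodes properdin, the stabiliser of the enzyme that splits C3, and myeloid cells are its best known source. Its signal ran from 156.1 over a median of 180.9 to 289 in Apoe-deficient ganglia. In wild-type ganglia it was 41.4, 15.7, 143.6, 71.8 and 37.7 in replicates 1 to 5. All 6 Apoe-deficient arrays lay above all 5 wild-type arrays, by a narrow margin over wild-type replicate 3. Such a separation, higher in every Apoe-deficient array, was seen for 1.46% of the tested genes. On the log2 scale the mean was 7.78 ± 0.31 (SD, n = 6) with Apoe deficiency and 6.05 ± 0.90 (SD, n = 5) in the wild type, so the wild-type arrays were the more spread. The difference was 1.73 (SE 0.33, 95% interval 1.01 to 2.44, limma adjusted p = 0.0174), which is 3.31-fold with an interval of 2.02 to 5.44. Because the wild-type values are low, the added 16 shrinks this fold. The difference was 1.18 with 64 added and 2.09 with 1 added.

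The call for Cfp held without any filter (1.73, limma adjusted p = 0.0289 over 12393 genes, of which 1.05% passed), though there it was lost in 6 of the 11 fits that left out 1 array. It was lost without wild-type replicate 5 (1.63, limma adjusted p = 0.0504) and when the control level entered the fit as a block (1.92, limma adjusted p = 0.087). Within the high level, 2 arrays against 2 differed by 2.59. Within the middle level, 1 Apoe-deficient array against 3 wild-type arrays differed by 1.04, and the low level held Apoe-deficient arrays only. The size of the difference was therefore kept when the 3 low arrays were set aside, at 1.74, while the p was not (limma adjusted p = 0.24, no filter).

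**Figure D2:**
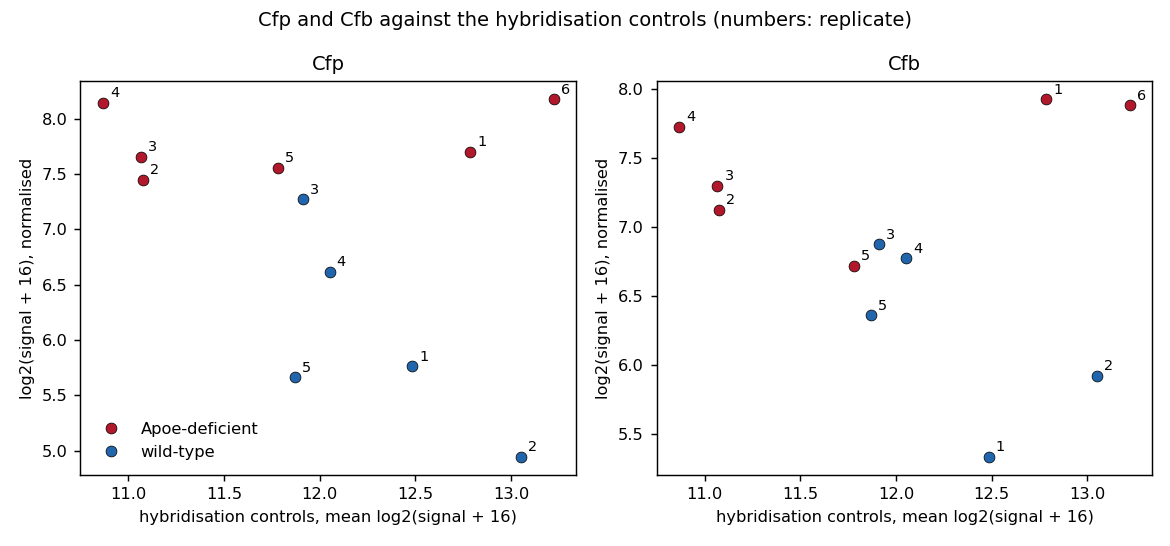
Normalised log2(signal + 16) of Cfp and Cfb against the mean log2(signal + 16) of the hybridisation controls in each array, numbered by replicate. Apoe-deficient and wild-type arrays lie far apart at the high control level, where the differences are 2.59 for Cfp and 2.28 for Cfb, and closer at the middle level, where they are 1.04 and 0.05.

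The promoter of Cfp is shown because it was the gene that passed, and that of Cd55 as a member that did not. Both are RefSeq windows of GRCm38.p6 from 250 bases before to 50 bases after the start, read on the minus strand, at chrX:20931506-20931805 for Cfp and chr1:130462695-130462994 for Cd55. Capitals mark matches, on either strand, to a loose form of the NF-kB site in which 3 G and 2 C stand around any 5 bases.
Cfp: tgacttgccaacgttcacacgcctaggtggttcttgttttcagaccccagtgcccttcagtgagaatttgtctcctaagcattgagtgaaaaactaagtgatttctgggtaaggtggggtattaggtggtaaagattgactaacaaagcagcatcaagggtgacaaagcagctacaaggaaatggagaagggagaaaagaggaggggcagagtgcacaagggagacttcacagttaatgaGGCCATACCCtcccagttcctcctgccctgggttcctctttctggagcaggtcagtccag
Cd55: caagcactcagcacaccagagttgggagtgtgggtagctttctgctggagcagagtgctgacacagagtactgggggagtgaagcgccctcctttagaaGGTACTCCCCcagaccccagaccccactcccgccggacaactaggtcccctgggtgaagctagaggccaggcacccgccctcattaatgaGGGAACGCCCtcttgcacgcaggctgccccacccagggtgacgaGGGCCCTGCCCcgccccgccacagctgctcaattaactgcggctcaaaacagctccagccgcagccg
The match in the Cfp window covers bases 241 to 250, just before the start. The Cd55 window holds matches at bases 100 to 109, at bases 190 to 199 on both strands, and 2 that overlap at bases 234 to 244. Promoters were in the table for 5 of the 6 measured genes, without Cfb, and 4 of the 5 held this motif, as did 50.8% of the 32851 promoters in the table. The gamma-activated site form TTCNNNGAA was in 0 of 5 member windows and 8.3% of all, and the C/EBP form TTNNGNAA in 1 of 5, that of C5ar1, and 40.7% of all. The motifs did not set Cfp apart from Cd55.

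Cfb encodes factor B, the protease of the alternative pathway, which many cell types make under inflammatory stimuli. Its signal ran from 93.2 over a median of 162.1 to 234.2 in Apoe-deficient ganglia. In wild-type ganglia it was 26.9, 46.8, 107.4, 82.5 and 72.3 in replicates 1 to 5. 5 of the 6 Apoe-deficient arrays lay above all wild-type arrays, and the remaining one, replicate 5, lay among them. The log2 mean was 7.45 ± 0.48 (SD, n = 6) with Apoe deficiency and 6.25 ± 0.64 (SD, n = 5) in the wild type. The difference of 1.19 (SE 0.30, 95% interval 0.55 to 1.83, limma adjusted p = 0.053) corresponds to 2.29-fold and did not pass over all genes.

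The Cfb difference was unequal at the 2 control levels that held both groups. Within the high level the Cfb means were 7.90 in 2 Apoe-deficient arrays and 5.63 in 2 wild-type arrays, a difference of 2.28. Within the middle level the value was 6.72 in the single Apoe-deficient array, against a mean of 6.67 in 3 wild-type arrays, a difference of 0.05. Cfb passed without Apoe-deficient replicate 5 (1.34, limma adjusted p = 0.033), without wild-type replicate 4 (1.32, limma adjusted p = 0.039) and with array weights (1.04, limma adjusted p = 0.040). Of the 11 fits without 1 array, Cfb stayed past the filter in 6, those lacking Apoe-deficient replicate 5 or a wild-type array. With no filter it passed in 1 of the 11. When the control level entered the fit as a block, Cfb stood at 1.32 (limma adjusted p = 0.21). In the RefSeq table Cfb and C2, its counterpart in the classical pathway, lie side by side on chromosome 17 apart from a microRNA gene. C2 had a difference of 0.65 (limma adjusted p = 0.14) and did not pass either.

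**Figure D3:**
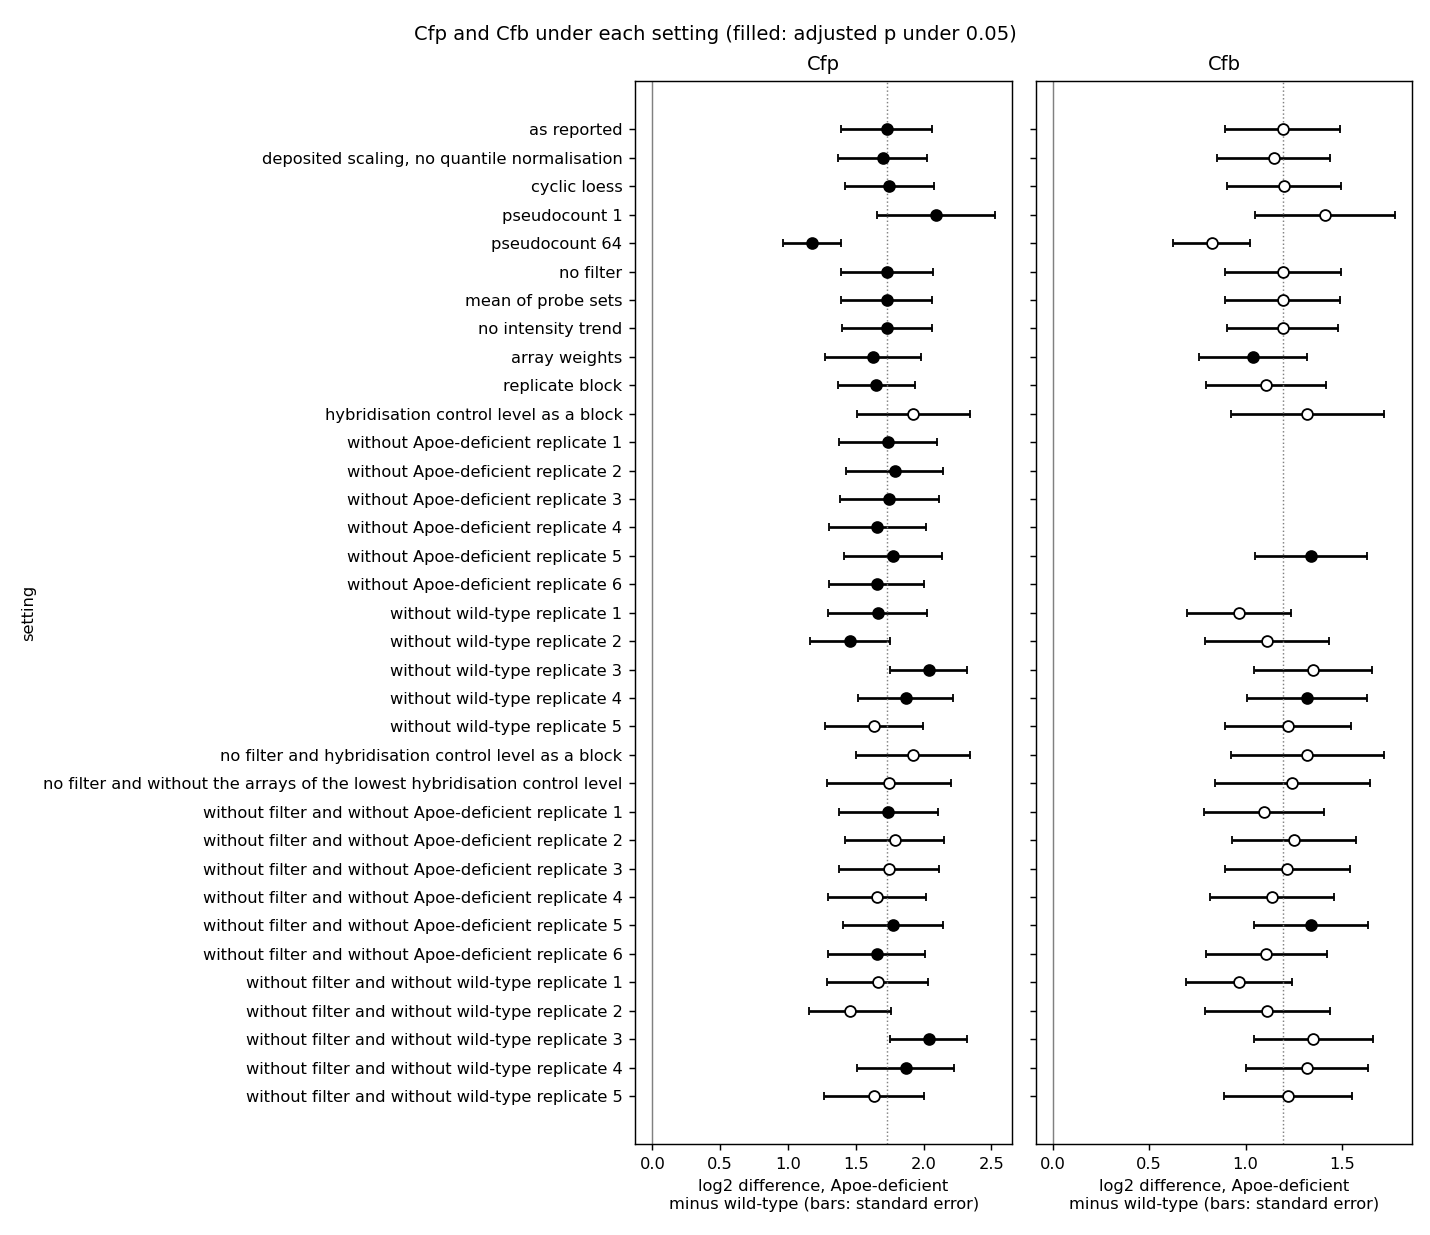
Log2 difference, Apoe-deficient minus wild-type, of Cfp and Cfb under every setting in which Cfp was tested, with bars of 1 standard error and filled points where the limma adjusted p was under 0.05. The vertical dotted line is the reported value (1.73 and 1.19). Every difference lies above 0, and most Cfb points are open. Cfb has no point where it fell below the filter.

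C3ar1 encodes the receptor for C3a, the small fragment of C3, and is carried by macrophages and other myeloid cells. The probe set that represents it had a signal of 133.1 to 226.8, with a median of 209.2, in Apoe-deficient ganglia. In wild-type ganglia the signals were 123.5, 119.3, 164.7, 158.4 and 147.5 in replicates 1 to 5. 4 of 6 Apoe-deficient arrays lay above all wild-type arrays, and the groups overlapped. The difference was 0.40 (SE 0.18, 95% interval 0.02 to 0.78, limma adjusted p = 0.22). The other probe set of the gene gave 0.35 (SE 0.22, limma adjusted p = 0.38 over 12757 probe sets, of which 1.43% passed), with 2 of 6 Apoe-deficient arrays above all wild-type arrays. Both pointed the same way and neither passed.

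C5ar1 encodes the receptor for C5a, best known from neutrophils and macrophages. Its probe set was below the filter and exceeded the filter value in 2 of 6 Apoe-deficient and 1 of 5 wild-type arrays. The signal was 10.5, 95, 72.9, 118.3, 92.4 and 149.7 in Apoe-deficient replicates 1 to 6, against 114.1, 59.9, 93.3, 80.6 and 118.3 in wild-type replicates 1 to 5. Apart from the low Apoe-deficient replicate 1, the groups overlapped, with 2 Apoe-deficient arrays above all wild-type arrays on the log2 scale. The difference was -0.15 (95% interval -0.94 to 0.64) without the filter, and 0.20 without Apoe-deficient replicate 1. The interval does not exclude a change of either sign. Its width rested on that array, since the SE was 0.20 without it and 0.36 with it.

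Cd55 encodes decay-accelerating factor, which takes apart the enzyme that splits C3 on host membranes. The signal of its representative probe set ran from 341.5 over a median of 443.4 to 568.5 in Apoe-deficient ganglia. In wild-type ganglia it was 474.2, 339.2, 380.4, 497.8 and 427.5 in replicates 1 to 5. The groups overlapped over nearly their whole range, and the difference was 0.08 (SE 0.14, 95% interval -0.22 to 0.38, limma adjusted p = 0.78). Its other probe set gave a larger difference of 0.49 (SE 0.18, 95% interval 0.10 to 0.88, limma adjusted p = 0.17 over 12757 probe sets). There 4 of 6 Apoe-deficient arrays lay above all wild-type arrays. The 2 probe sets thus disagreed in size, and 1 more, which also reads the related gene Cd55b, was left out.

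Cd59a encodes the membrane protein that blocks assembly of the lytic pore. The signal of its representative probe set ran from 1947.3 over a median of 2822.1 to 3342.6 in Apoe-deficient ganglia. In wild-type ganglia it was 2591.8, 2246.3, 2596.4, 3330.8 and 2626.1 in replicates 1 to 5. Apoe-deficient replicate 5 was the lowest array of all, and the other arrays of the groups lay together. The difference was 0.03 (SE 0.13, 95% interval -0.24 to 0.30, limma adjusted p = 0.91), and it changed sign in some settings. The other probe set gave 0.25 (SE 0.18, limma adjusted p = 0.45 over 12757 probe sets). For both regulators the intervals of the representative probe sets end below 0.39, so a difference as large as that of Cfp lies outside them.

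**Figure D4:**
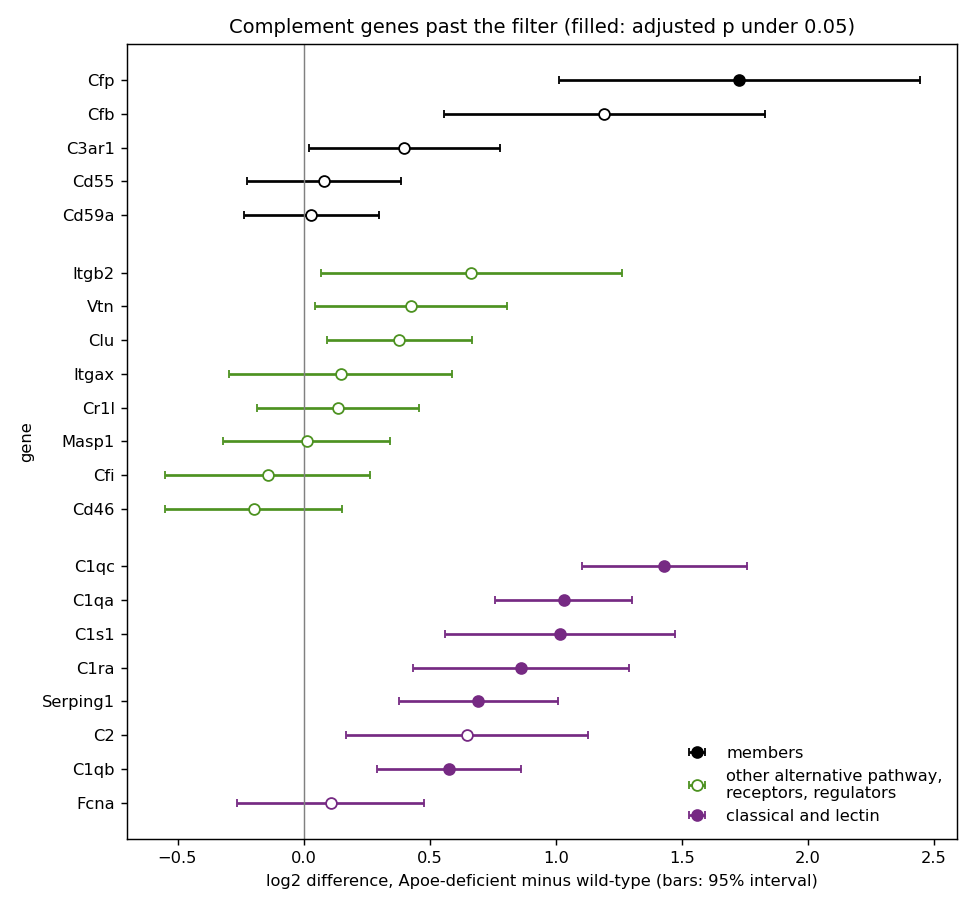
Log2 difference, Apoe-deficient minus wild-type, with its 95% interval for every complement gene past the filter: 5 members, 8 other genes of the alternative pathway, receptors and regulators, and 8 genes of the classical and lectin pathways. Filled points have a limma adjusted p under 0.05. Cfp is the single filled point outside the classical genes.

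Other genes of the alternative pathway, complement receptors and regulators were taken from a list of 20, of which 13 had a single-gene probe set and 8 passed the filter. Of these 8, 0 rose and 0 fell, with a median difference of 0.14 and a range of -0.20 to 0.67. Itgb2, the shared beta chain of complement receptors 3 and 4, had the largest difference (0.67, limma adjusted p = 0.20). The fluid-phase regulators vitronectin (Vtn) and clusterin (Clu) differed by 0.43 and 0.38, and factor I (Cfi), which cuts and inactivates the bound fragment of C3, by -0.14. The other Clu probe sets past the filter gave 0.47 to 0.52 (limma adjusted p = 0.087 to 0.18 over 12757 probe sets). The membrane regulators Cr1l and Cd46 differed by 0.14 and -0.20, and Itgax, the alpha chain of complement receptor 4, by 0.15. None of these passed. Masp1, which through splicing also gives MASP-3, the activator of factor D, differed by 0.01 by its representative probe set. Masp1 had 5 probe sets, of which 2 others passed the filter, and these gave 1.62 (limma adjusted p = 0.064 over 12757 probe sets) and -0.15 (limma adjusted p = 0.70). The one at 1.62 was above the filter value in 5 of 6 Apoe-deficient and 0 of 5 wild-type arrays, so it entered through the Apoe-deficient arrays, and the probe sets disagreed.

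The receptor genes Vsig4, Cr2 and Itgam, the regulator Cd55b and Cfhr2 were below the filter. Without it Itgam, the alpha chain of complement receptor 3, had a signal of 33.4 ± 15.8 (SD, n = 6) with Apoe deficiency and 13.0 ± 6.25 (SD, n = 5) in the wild type, and a difference of 0.80 (limma adjusted p = 0.15). Vsig4, a macrophage receptor for fragments of C3, had a signal of 132 ± 48.4 (SD, n = 6) with Apoe deficiency and 81.6 ± 21.9 (SD, n = 5) in the wild type, and a difference of 0.63 (limma adjusted p = 0.21). Neither passed. Cr2 differed by -0.33, the probe sets of Cfhr2 by -0.54 and -0.33 and Cd55b by 0.06, and none of these passed. The list of terminal components, which build the lytic pore, had 6 of 7 genes on the array and 0 past the filter. None of these 6, namely Hc, C6, C8a, C8b, C8g and C9, passed without it. Their differences were 0.07, 0.57, 0.74, 0.38, 0.10 and -0.94 in that order. C9, the last (limma adjusted p = 0.18), was above the filter value in 0 of 6 Apoe-deficient and 3 of 5 wild-type arrays. Among 8 tested genes of the classical and lectin pathways 6 rose and 0 fell, with a median of 0.78, where 1.26% of all tested genes rose. They were C1qa, C1qb, C1qc, C1ra, C1s1 and Serping1, the C1 chains and their inhibitor, and the count was 2 or 3 when any one of replicates 2, 3 and 4 of the Apoe-deficient group or 1, 2 and 5 of the wild type was left out. It was 3 with the replicate block, with the control level block and when the 3 low arrays were dropped. With no filter it was 4 of 12, namely C1qa, C1qc, C1s1 and Serping1. C1qb was counted by its probe set of highest mean, which gave 0.58. Its other probe sets gave 1.05 and 1.22 (limma adjusted p = 0.0012 and 0.00043 over 12757 probe sets). Whether the members' differences are smaller than those of the classical genes was not tested.

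Markers of the cells that such tissue could hold differed by cell type. Of 12 macrophage markers 7 rose and 0 fell, where 1.26% of all tested genes rose, with a median difference of 0.80, and none was below the filter. Their summed signal was 9647 to 14310 in Apoe-deficient ganglia and 5665 to 7321 in wild-type ganglia. Of 6 mast cell markers 5 were tested and 4 rose, while Kit, at 0.02, did not pass. The summed signal of the 5 was 1646 to 4886 in Apoe-deficient ganglia and 633.2 to 1686 in wild-type ganglia. Tpsb2 and Mcpt4, which rose, had wild-type means of 5.48 and 6.86, below the filter value. They may have entered through the Apoe-deficient arrays, as Cfp and Cfb did, so the count of 4 only describes these markers. Of 8 neutrophil markers 2 were tested and 0 passed. S100a8, S100a9, Camp, Cxcr2 and Mmp8 were below the filter, and the summed signal of the tested pair was 179.7 to 330.2 in Apoe-deficient ganglia and 255.3 to 404.9 in wild-type ganglia. Of 7 fibroblast markers 1 rose, Postn, and the summed signal was 11748 to 17795 in Apoe-deficient ganglia and 8685 to 13087 in wild-type ganglia. Of 5 tested plasma cell markers Ighm and Jchain rose, with a summed signal of 16244 to 74337 in Apoe-deficient ganglia and 5687 to 21695 in wild-type ganglia. Of 5 endothelial markers tested 0 passed, and the summed signal was 934.8 to 1554 in Apoe-deficient ganglia and 994.5 to 1356 in wild-type ganglia. White adipocyte markers lay the other way. All 6 tested had a difference below 0, with a median of -0.75, and 0 passed. Their summed signal was 3731 to 27989 in Apoe-deficient ganglia and 11100 to 35287 in wild-type ganglia. None of the other lists had a marker that passed: the median difference was -0.02 over 7 noradrenergic neuron markers, -0.06 over 4 of satellite glia and Schwann cells, 0.11 over 5 of smooth muscle and pericytes and -0.01 over 2 of hepatocytes. The part of the macrophage and other markers in the differences of Cfp and Cfb was not tested, and more cells of a type cannot be told apart from more RNA per cell in such tissue samples.

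Within the groups some members varied together and others did not. After each array's value was taken minus its group mean, the 10 pairs of the 5 tested members had a Pearson r of 0.13 to 0.81 over 11 arrays, with a median of 0.62. Over all pairs of the 8433 genes the quartiles of r were -0.29 and 0.30, with a median of 0.0050. Cfp and Cfb had an r of 0.67, while Cd55 had an r of 0.13, 0.19 and 0.29 with Cfb, Cfp and C3ar1. With Cd59a, Cd55 had an r of 0.64. Over all 36 pairs of the members' 9 probe sets, 5 had an r below 0, the lowest at -0.21. The probe sets of C3ar1 had an r of 0.37 with each other. By the one outside the 10 pairs, r was 0.23 with Cfb, 0.36 with Cfp, 0.18 with Cd59a and -0.21 with Cd55. By the representative one it was 0.78, 0.60, 0.81 and 0.29. The genes were read on the same arrays, so the values are a description. Among the 8433 genes, those most like Cfp were Tnks1bp1, Nabp2 and Pvr (r of 0.87, 0.83 and 0.82), and those most like Cfb were Psmb1, Taldo1 and Tmem120b (0.89, 0.88 and 0.87). The nearest to C3ar1 were Txlng, Spcs1 and Fbh1 (0.91, 0.88 and 0.88) and to Cd55 Polr2b, Cnmd and Rps6 (0.88, 0.84 and 0.84). The nearest to Cd59a were Mrc1, Ccl6 and Ikbkg (0.93, 0.92 and 0.92). Of these the mannose receptor gene Mrc1 and the chemokine gene Ccl6 rose while Cd59a did not pass. Tmem120b, near Cfb, and Cnmd, near Cd55, fell (-0.75 and -1.59, limma adjusted p = 0.0199 and 0.0288). The other nearest genes did not pass. Being the closest of so many, such genes have a high r by selection.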

How the data were processed

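The authors deposited 1 table of linear intensity values for 22690 probe sets on 11 arrays, for which the submitters' processing notes name GCOS 1.4. The signal algorithm is not stated in these notes. Each array had a 2% trimmed mean near 500.2, and the median signal was 163 to 188.6.

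After 64 array controls were left out, values were log2(signal + 16), quantile normalised over the arrays. Probe sets past the filter and with 1 gene symbol in the platform annotation were used, with the probe set of highest mean for each gene. limma 3.58.1 in R 4.3.3 fitted the 2 groups with an intensity trend, two-sided, and every adjusted p comes from limma with Benjamini-Hochberg adjustment. The script was tested on simulated data. Other probe sets of a gene come from a fit of all single-gene probe sets past the filter.

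The members, the lists and the tests were chosen with earlier results of these data known. The genes named were the members, every measured gene of the fixed complement lists, Apoe, the markers and the 3 nearest genes by r of each tested member. Hybridisation control levels were set by parting the sorted array means at the 2 largest gaps. Same-numbered arrays of the groups deviated together (r above 0.1) in 1 of 5 pairs, so the numbers were not taken as pairing. Settings that combine no filter with another choice were chosen after seeing the data. Cfb has no sequence in the promoter table used.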

Additional observations from a re-analysis of the deposited data

Results flagged for a closer look

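In Apoe-deficient replicate 1 the C5ar1 value was 4.82, below the 6.64 to 7.25 of the other 5 arrays of its group. The array's C5ar1 signal was 10.5. In Apoe-deficient replicate 5 the Cd59a value was 10.95 by the representative probe set, below the 11.44 to 11.71 of the others. In Apoe-deficient replicate 3 the Apoe value was 4.64, below the 7.09 to 8.18 of the others, at a signal of 7.2. Each stood apart by Dixon's ratio of the gap to the range, and chance gives about 1 such value in 20 groups; 52 were examined and 3 stood apart.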

How the results depend on the processing

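The Cfp difference stayed above 0 in all 34 alternatives that could be fitted, from 1.18 to 2.09, and passed in 24 of them. Its call was lost when the control level was a block (1.92 with and without the filter) and, of the fits without 1 array (1.46 to 2.04), in that lacking wild-type replicate 5. With no filter, a choice made after seeing the data, it was also lost when the 3 low arrays were left out (1.74) and when any one of replicates 2, 3 and 4 of the Apoe-deficient group or 1, 2 and 5 of the wild type was left out. The Cfb difference was 0.82 to 1.41. It passed with array weights (1.04) and, of the fits without 1 array (0.97 to 1.35), in those lacking Apoe-deficient replicate 5 or, with the filter, wild-type replicate 4. With the filter, 6 of these 11 fits held Cfb. The number of members called was 0 under the 60th percentile filter, under the control level block and when the 3 low arrays were left out, 2 with array weights, and 0 to 2 without 1 array, against 1 as reported. Under the 60th percentile filter, and among the 8 arrays left without the low ones, the filter removed Cfp and Cfb. Cd55 changed sign with the control level block (-0.054) and when the 3 low arrays were left out (-0.029). Cd59a did so in the same settings (-0.098 and -0.082), and its range without 1 array was -0.027 to 0.13, below 0 when Apoe-deficient replicate 4 (-0.027) or wild-type replicate 2 (-0.024) was missing. These differences never passed. Cd55 stood at 0.29 by the mean of its probe sets. All genes called numbered 163 as reported, 668 with array weights, 45 with the control level block (41 with no filter), 24 when the 3 low arrays were left out (32 with no filter) and 51 to 267 without 1 array. Classical and lectin genes called numbered 6 as reported and 4 with no filter. They numbered 3 under the replicate block, the control level block and the omission of the 3 low arrays, and 2 to 7 without 1 array. Under the replicate block Cfp stood at 1.65 (limma adjusted p = 0.0197) and Cfb at 1.11 (limma adjusted p = 0.096). That block, in which Apoe-deficient replicate 6 has no partner, changed no call of a member. The cause of these changes was not tested, apart from the filter named above.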
